A study of Homo sapiens with 8 samples.

Results

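The 53 genes described here copy DNA or prepare the cell to do so: they recognise and license origins, unwind and copy the template, join Okazaki fragments, supply nucleotides and histones, and start S phase. They were chosen by name, with earlier results of these data known. A probe set of the Affymetrix U133 Plus 2.0 array counted as a member if the array annotation gave the symbol of 1 of these genes as its only symbol. That rule took 100 of the 54675 probe sets on the array, for 53 of the 19775 genes that had a probe set of their own. Of the member genes, 24 had 1 probe set and 29 had several, and 4 further probe sets that name PRIM2 together with another gene were left out. All 100 probe sets were tested, since no filter on low values was applied.

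RNA was measured in 8 cultures of human multiple myeloma cells, 1 array per culture, from the established lines JJN3 and RPMI-8226. In each line, 1 culture received a lentivirus with an shRNA against IRE1, 1 received an shRNA against XBP1, 1 received a non-targeting (NT) shRNA and 1 stayed uninfected. Cells were exposed to virus for 16 h in 8 µg/mL polybrene, and RNA was taken at 96 h. IRE1, encoded by ERN1, is a stress sensor of the endoplasmic reticulum whose RNase activity splices the XBP1 mRNA, and the XBP1 protein drives the secretory programme of plasma cells. The lines are the replicates of each treatment (n = 2), and no second culture of a treatment within a line was analysed, so the p-values measure the spread between these arrays. Whether infected cells were selected is not given in the sources used here. Below, silenced means the IRE1 shRNA and XBP1 shRNA arrays together, and control means the NT shRNA and uninfected arrays together.

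Replication is prepared when the origin recognition complex binds DNA and CDC6 and CDT1 help it to load the ring-shaped MCM helicase. The kinase CDC7 with its partner DBF4, and the factors MCM10, CDC45 and GINS, turn the loaded ring into a moving helicase, behind which primase and the polymerases work on the clamp PCNA. Many of these genes are known targets of the E2F transcription factors, which cyclin E and its kinase release from RB at the start of S phase, so that their mRNAs are abundant in dividing cells.

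The promoters of the genes were searched for the E2F octamers, a feature that the choice of members did not use. The window ran from 250 bases before to 50 bases after the transcription start in RefSeq (build GRCh38.p14). The octamers were TTTCCCGC, TTTGGCGC, TTTCGCGC and TTTGCCGC, read on both strands, with overlapping matches counted. Of the 59 member promoters in that table, 24 held at least 1 octamer (40.7%), against 1164 of 35116 promoters of all RefSeq genes (3.31%). Counted by gene, 23 of 46 members had one (50.0%), against 1090 of 27305 genes (3.99%). TTTCCCGC stood in 13 member promoters, TTTGGCGC in 8, TTTCGCGC in 6 and TTTGCCGC in 1. A match describes the letters and does not show that a factor binds. CCNE2, RPA3, POLD3, GINS4, MCM4, RPA2 and MCM5 were not matched to an entry.

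The promoters of 5 members named in the results below are printed 5′ to 3′ on the gene's own strand, with the octamers in capitals. All 5 were taken from the 23 members with an octamer and do not stand for the others. PRIM1 and ORC2, which are also named below for their low adjusted p, held 0 octamers. MCM6 lies on the minus strand at chr2:135876394-135876693 and held 4 octamers in a pair of overlapping matches at each of 2 places. CDC6 lies on the plus strand at chr17:40287629-40287928 and held 1. CLSPN lies on the minus strand at chr1:35769929-35770228 and held 1. E2F1, itself a gene of an E2F factor, lies on the minus strand at chr20:33686336-33686635 and held 2. ORC3, the member that passed the test for the XBP1 shRNA, lies on the plus strand at chr6:87589885-87590184 and held 1.
MCM6: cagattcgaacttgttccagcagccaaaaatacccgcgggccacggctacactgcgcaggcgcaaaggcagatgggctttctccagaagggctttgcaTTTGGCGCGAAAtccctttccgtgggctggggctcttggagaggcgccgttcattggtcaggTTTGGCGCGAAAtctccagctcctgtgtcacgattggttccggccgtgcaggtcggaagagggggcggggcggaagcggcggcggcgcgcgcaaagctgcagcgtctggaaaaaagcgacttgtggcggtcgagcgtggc
CDC6: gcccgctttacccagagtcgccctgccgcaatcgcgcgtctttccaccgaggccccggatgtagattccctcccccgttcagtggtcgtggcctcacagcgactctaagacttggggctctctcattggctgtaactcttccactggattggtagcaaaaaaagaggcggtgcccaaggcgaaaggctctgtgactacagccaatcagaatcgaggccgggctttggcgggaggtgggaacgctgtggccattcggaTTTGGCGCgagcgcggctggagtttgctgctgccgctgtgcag
CLSPN: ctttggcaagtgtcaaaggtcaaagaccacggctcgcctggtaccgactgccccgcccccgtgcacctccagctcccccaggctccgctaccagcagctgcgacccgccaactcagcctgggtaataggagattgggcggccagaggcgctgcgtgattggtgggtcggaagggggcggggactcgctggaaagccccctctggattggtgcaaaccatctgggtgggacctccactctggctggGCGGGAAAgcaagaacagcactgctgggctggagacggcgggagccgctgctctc
E2F1: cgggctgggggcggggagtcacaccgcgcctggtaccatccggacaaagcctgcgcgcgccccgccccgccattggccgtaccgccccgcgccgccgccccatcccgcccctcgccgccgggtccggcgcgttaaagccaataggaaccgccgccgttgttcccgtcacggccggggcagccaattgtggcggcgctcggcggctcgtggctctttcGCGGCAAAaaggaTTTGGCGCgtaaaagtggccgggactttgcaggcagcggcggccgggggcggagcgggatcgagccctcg
ORC3: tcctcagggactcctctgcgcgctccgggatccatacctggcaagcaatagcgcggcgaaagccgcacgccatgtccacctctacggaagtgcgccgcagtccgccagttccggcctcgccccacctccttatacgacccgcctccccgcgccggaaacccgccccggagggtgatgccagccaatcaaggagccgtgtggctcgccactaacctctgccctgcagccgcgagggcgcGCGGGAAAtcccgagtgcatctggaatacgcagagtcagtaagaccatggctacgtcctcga

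The target genes were read first. XBP1 (probe set 200670_at) was at 16.8% of the NT shRNA array on the IRE1 shRNA array of JJN3 and at 45.6% on its XBP1 shRNA array. In RPMI-8226 it was at 64.7% and 65.9% of NT on the arrays labelled IRE1 shRNA and XBP1 shRNA. ERN1 (235745_at) was at 53.9% of NT on the JJN3 IRE1 shRNA array, but at 129.8% on the RPMI-8226 array labelled IRE1 shRNA, where it was at 64.1% of the uninfected array. On the XBP1 shRNA arrays ERN1 was at 42.9% of NT in JJN3 and 36.7% in RPMI-8226. Each percentage compares 1 array with 1 other, and each target gene was read on 1 probe set only, that of highest SD. On this ERN1 probe set the RPMI-8226 array therefore goes against its label when set beside NT, and it is called the array labelled IRE1 shRNA. Silencing over both lines, in RPMI-8226 and for IRE1 shRNA is also given without it below.

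The deposited values are log2 signals in which every probe set has a median of 0 over the 8 arrays. A value thus says how far an array lies above or below that probe set's own median, and neither an expression level nor the presence of a marker can be read. The median over all probe sets was -0.055 to -0.036 on the JJN3 arrays and 0.027 to 0.058 on the RPMI-8226 arrays. The hybridisation controls (18 probe sets) had a median of 0.42 on the JJN3 IRE1 shRNA array, against -0.0047 to 0.048 on the other JJN3 arrays. The spiked poly-A controls (27 probe sets) were highest, within each line, on the XBP1 shRNA array, at 0.12 in JJN3 and 0.41 in RPMI-8226. Median signals of plasma cell markers (8 genes, 17 probe sets) were 0.14 and -0.20 on the IRE1 shRNA and XBP1 shRNA arrays of JJN3, against 0.042 on NT and 0.30 on uninfected. In RPMI-8226 they were -0.046 and -0.16 on the arrays labelled IRE1 shRNA and XBP1 shRNA, against 0.060 and 0.076. The actin 3′ minus 5′ probe set difference, a sign of RNA quality, was 0.13 to 0.42 on the JJN3 arrays and -0.61 to -0.43 on the RPMI-8226 arrays, so that it separated the lines. For GAPDH it was 0.0037 to 0.046 and -0.083 to 0.062. Marker medians of other cell types lay between -0.16 and 0.13 for T and NK cells (5 genes, 6 probe sets), between -0.21 and 0.12 for myeloid cells (5 genes, 8 probe sets) and between -0.15 and 0.17 for stromal and epithelial cells (5 genes, 15 probe sets). The part of these in the results below was not tested.

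In JJN3 the replication genes were lower after silencing, and nearly all of them together. The median of the 100 member probe sets was 0.015 on the IRE1 shRNA array and 0.0011 on the XBP1 shRNA array, against 0.31 on NT shRNA and 0.37 on uninfected. Paired by probe set, the median difference from NT was -0.18 for IRE1 shRNA and -0.34 for XBP1 shRNA, and that from uninfected was -0.27 and -0.45. Between the 2 controls, NT minus uninfected, it was -0.063. For 64 of the 100 probe sets, in 43 genes, both silenced arrays were below both controls, against 20.3% of all probe sets. For 2 probe sets, of RFC5 and CLSPN, both were above, against 19.6%. The difference of the means, silenced minus control, had a median of -0.36 over the members and 0.00 over all probe sets, and 91 of 100 members were below 0. These are bulk cultures, in which fewer cells in S phase and less RNA per cell cannot be told apart.

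No single member passed the adjusted threshold of 0.05 in that comparison: limma with Benjamini-Hochberg adjustment over 54613 probe sets called 0 members, and 38 of all probe sets (0.0696%). At an unadjusted p under 0.05, 38 members were lower, against 4.66% of all probe sets, and 1 was higher, against 4.56%. Fewer members were lower at that p without any 1 JJN3 array, and fewest without the uninfected array. The members' median was -0.23 without the JJN3 XBP1 shRNA array and -0.29 without the uninfected one. It was -0.38 without the JJN3 IRE1 shRNA array and -0.41 without the JJN3 NT array. The spread was taken between the 2 shRNA arrays and between the NT and uninfected arrays of each line, and was pooled over both lines. A standard error given for JJN3 thus includes the spread within RPMI-8226 and any difference between unlike treatments. Each gene is represented from here on by its probe set of highest SD over the 8 arrays, unless another is named; of these 53 probe sets, 51 were below 0, with a median of -0.43.

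**Figure D1:**
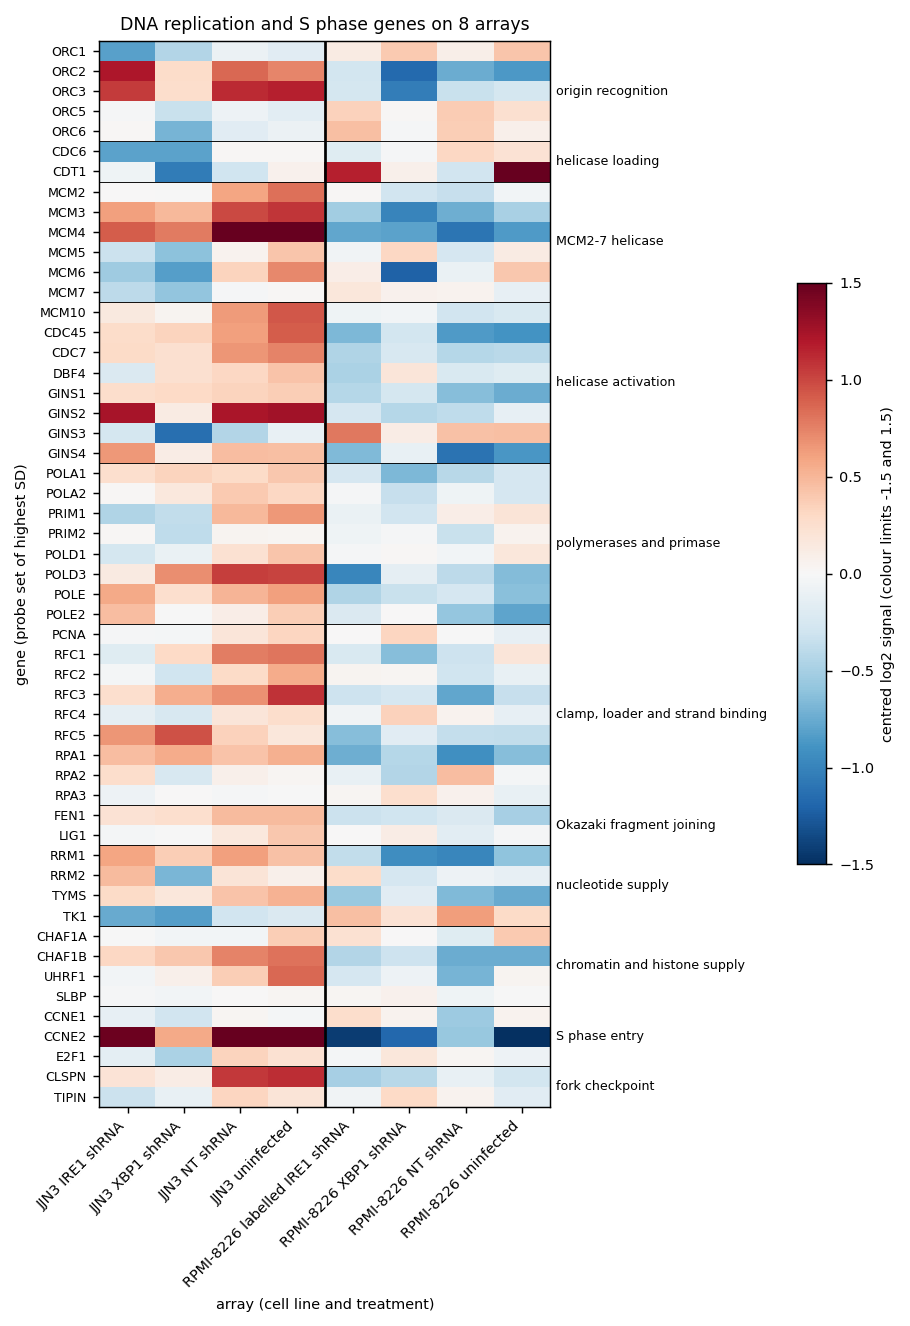
Centred log2 signal (colour, limits -1.5 and 1.5) of 53 replication genes, each by its probe set of highest SD, on the 4 JJN3 arrays (left) and the 4 RPMI-8226 arrays (right), grouped by role. In JJN3 the IRE1 shRNA and XBP1 shRNA columns are paler or bluer than the NT shRNA and uninfected columns for most genes, and 36 of the 53 had both silenced arrays below both controls, against 21.8% of all genes.

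The MCM helicase genes showed the pattern with no exception among their 6 representatives. MCM6 (238977_at) was at -0.53 on IRE1 shRNA and -0.83 on XBP1 shRNA in JJN3, against 0.34 on NT and 0.71 on uninfected, a difference of -1.21 ± 0.38 (SE; limma adjusted p = 0.374). Its second probe set, 201930_at, was at -0.31 and -0.30, against 0.58 and 0.71, a difference of -0.95 ± 0.14 (limma adjusted p = 0.0829). On both probe sets the 2 silenced arrays lay together, well below the controls. MCM4 (212142_at) was at 0.91 on IRE1 shRNA and 0.78 on XBP1 shRNA, against 1.57 on NT and 1.76 on uninfected, a difference of -0.82 ± 0.15 (limma adjusted p = 0.136). MCM2 was at 0.0013 and -0.0013, against 0.60 and 0.82, a difference of -0.71 ± 0.17 (limma adjusted p = 0.236). The groups did not overlap for either gene, and for MCM2 the JJN3 silenced arrays sat at the level of the RPMI-8226 arrays.

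MCM5 was at -0.32 on IRE1 shRNA and -0.62 on XBP1 shRNA in JJN3, against 0.052 on NT and 0.42 on uninfected, and differed by -0.71 ± 0.21. MCM7 was at -0.39 and -0.59, against -0.012 and 0.012, and differed by -0.49 ± 0.14. MCM3 was at 0.62 and 0.48, against 0.99 and 1.08, and differed by -0.48 ± 0.18. In all 3 the XBP1 shRNA array was the lowest JJN3 array. Of the 13 probe sets of these 6 genes only 242479_s_at of MCM4 had overlapping groups in JJN3. The others were lower on both silenced arrays, as were 20.3% of all probe sets. Probe sets of the same gene are not independent of each other.

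**Figure D2:**
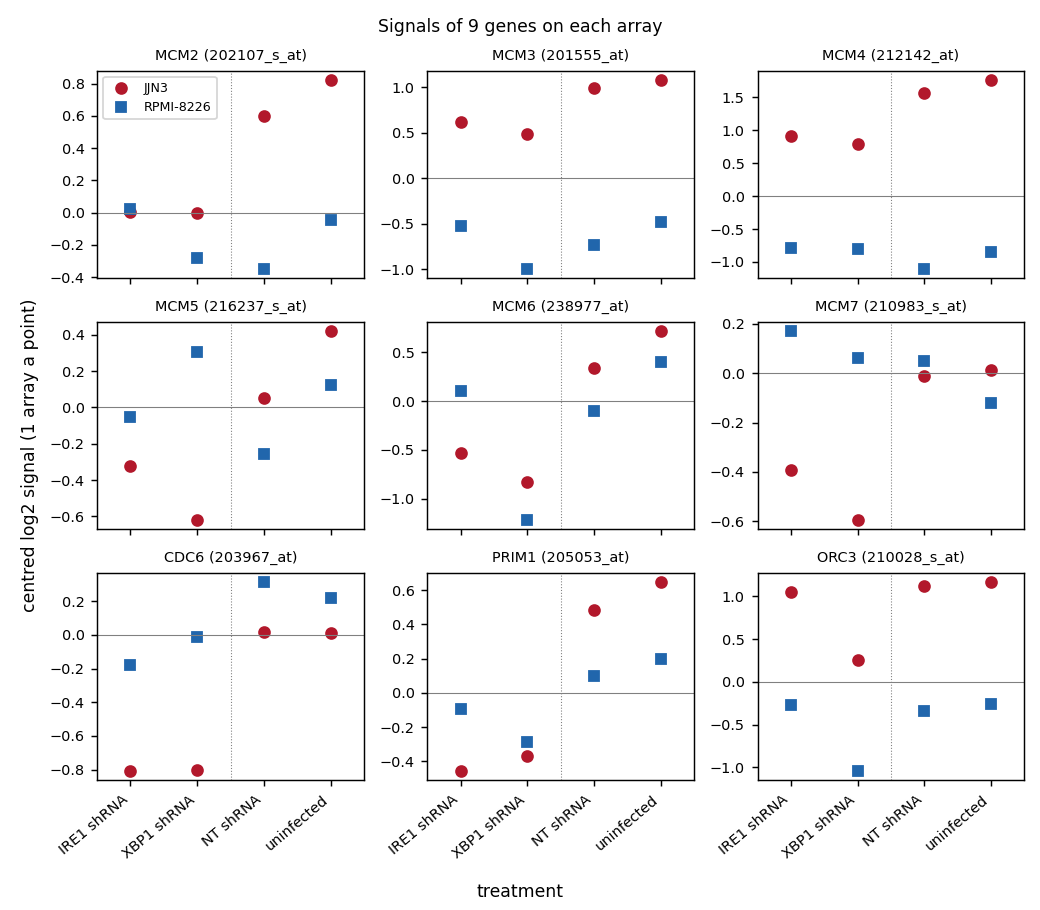
Centred log2 signal of 9 genes by treatment, 1 point per array, circles for JJN3 and squares for RPMI-8226 (whose IRE1 shRNA array is the one so labelled), with the silenced arrays left of the dotted line. In JJN3 the 6 MCM genes, CDC6 and PRIM1 are lower on both silenced arrays, whereas ORC3 is low in both lines on the XBP1 shRNA array only (0.26 in JJN3 and -1.04 in RPMI-8226).

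The loader CDC6 was among the members furthest down. CDC6 (203967_at) was at -0.81 on IRE1 shRNA and -0.80 on XBP1 shRNA in JJN3, against 0.015 on NT and 0.012 on uninfected, a difference of -0.82 ± 0.13 (limma adjusted p = 0.0943). Within each pair the 2 arrays nearly coincided. CDT1, which escorts the helicase to the origin, behaved otherwise on its representative 228868_x_at: -0.069 and -1.05 on IRE1 shRNA and XBP1 shRNA, against -0.30 and 0.069, so that the groups overlapped. Its other probe set, 209832_s_at, was at -0.66 and -1.03, against 0.017 and 0.079, with no overlap.

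Among the helicase activators all 8 representatives were below 0 in JJN3, from -0.69 to -0.067 with a median of -0.43. MCM10, which has the lowest of these, was at 0.14 on IRE1 shRNA and 0.039 on XBP1 shRNA, against 0.64 on NT and 0.93 on uninfected (limma adjusted p = 0.179). GINS2 differed between its probe sets: 221521_s_at was at 0.047 and -0.67, against 0.52 and 0.74, whereas 243136_at was at 1.24 and 0.12, against 1.23 and 1.26. Probe set 243136_at was thus low on the XBP1 shRNA array only. The 5 origin recognition genes had a median of -0.21, with ORC1 at -0.50 ± 0.19 and ORC2 at -0.058 ± 0.35.

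PRIM1, the catalytic subunit of primase, shared the lowest adjusted p of the members with CLSPN. It was at -0.46 on IRE1 shRNA and -0.37 on XBP1 shRNA in JJN3, against 0.48 on NT and 0.65 on uninfected, a difference of -0.98 ± 0.14 (limma adjusted p = 0.0762). The other polymerase and primase genes were between -0.61 (POLD3) and -0.012 (POLE2), with a median of -0.24 for the 8 genes. PCNA, the sliding clamp, was at -0.012 and -0.025, against 0.19 and 0.33, without overlap but with a difference of only -0.28 ± 0.15. Among the clamp loader genes, RFC1 differed by -0.73 ± 0.23 and RFC2 by -0.58 ± 0.16, although the groups overlapped on the other 2 probe sets of RFC1.

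RFC5, another loader subunit, and the strand-binding subunit RPA1 were the representatives above 0 in JJN3. RFC5 (213734_at) was at 0.66 on IRE1 shRNA and 0.95 on XBP1 shRNA, against 0.34 on NT and 0.17 on uninfected, a difference of 0.55 ± 0.19 (limma adjusted p = 0.412). Its other 2 probe sets went the other way. For instance, 203210_s_at was at -0.60 and -0.34, against 0.15 and -0.037. RPA1 overlapped between the groups and differed by 0.027 ± 0.16.

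The 4 genes of nucleotide supply had a median of -0.24. TK1, which salvages thymidine, was at -0.76 on IRE1 shRNA and -0.82 on XBP1 shRNA in JJN3, against -0.28 on NT and -0.22 on uninfected, a difference of -0.54 ± 0.16 (limma adjusted p = 0.329). TYMS, which makes thymidylate, was at 0.29 and 0.17, against 0.43 and 0.52, a difference of -0.24 ± 0.16. Neither gene's groups overlapped. RRM2, the regulated subunit of ribonucleotide reductase, was at 0.47 on IRE1 shRNA and -0.68 on XBP1 shRNA, against 0.19 and 0.074, so that the 2 shRNA arrays lay on opposite sides of the controls. The 2 Okazaki fragment genes, FEN1 and LIG1, differed by -0.24 ± 0.14 and -0.30 ± 0.14.

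The genes of S phase entry and of the fork checkpoint were lower as well. E2F1 (2028_s_at) was at -0.15 on IRE1 shRNA and -0.48 on XBP1 shRNA in JJN3, against 0.34 on NT and 0.23 on uninfected, a difference of -0.59 ± 0.16 (limma adjusted p = 0.278), but its probe set 204947_at had overlapping groups. CCNE2, a cyclin E, was at 1.47 and 0.57, against 1.57 and 1.61, which left its XBP1 shRNA array far below the other 3. CCNE1 differed by only -0.20 ± 0.20. CLSPN encodes claspin, which carries the ATR signal to CHK1 at the fork. It was at 0.21 and 0.11, against 1.06 and 1.11, a difference of -0.93 ± 0.13 (243840_at; limma adjusted p = 0.0762). Another CLSPN probe set, 219621_at, was higher on both silenced arrays, at -0.084 and 0.084, against -0.13 and -0.27. UHRF1, which recruits the maintenance DNA methyltransferase, was at -0.045 and 0.073, against 0.37 and 0.86, a difference of -0.60 ± 0.26.

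**Figure D3:**
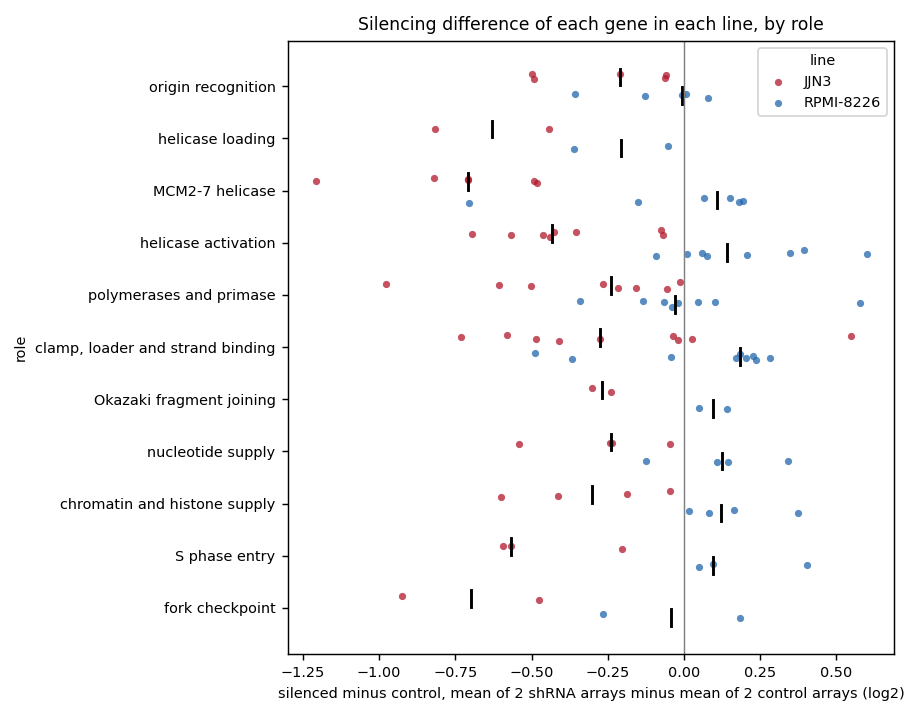
Silenced minus control (log2, mean of 2 shRNA arrays minus mean of 2 control arrays) for each gene by role, with JJN3 above RPMI-8226 in each row and black bars at the role median. Every role has a negative median in JJN3, from -0.71 (MCM helicase) to -0.21 (origin recognition), whereas those in RPMI-8226 lie between -0.21 and 0.18.

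Pairs of single arrays placed both shRNAs of JJN3 apart from both controls. Against NT, 15 member probe sets were at least 1.5-fold lower on the IRE1 shRNA array (4.21% of all probe sets) and 21 on the XBP1 shRNA array (4.66%). Against the uninfected array the counts were 26 for IRE1 shRNA (3.85%) and 34 for XBP1 shRNA (4.82%). Between the 2 controls, NT against uninfected, 0 members were 1.5-fold lower (1%). In RPMI-8226 the array labelled IRE1 shRNA had 2 members at least 1.5-fold lower than NT (2.71%) and 0 lower than uninfected (1.7%), and the XBP1 shRNA array had 6 (5.32%) and 5 (6.09%). There NT against uninfected gave 5 (3.36%). In JJN3 both shRNAs thus left a larger share of the members than of all probe sets lower, whereas in RPMI-8226 the 2 shares lay within 2 percentage points of each other in all 5 pairs. The pairs share arrays and are not independent of each other, and none has a replicate.

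**Figure D4:**
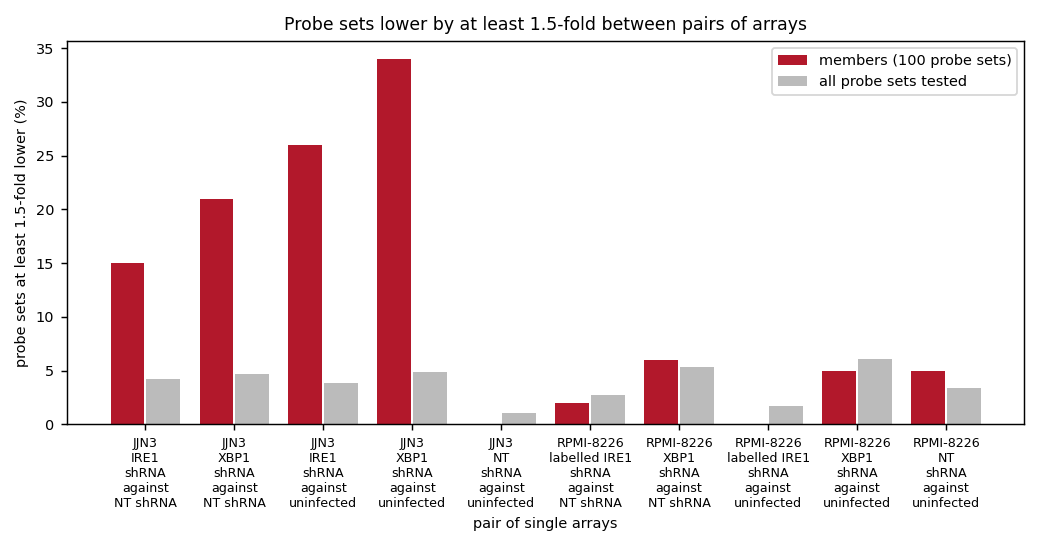
Share of probe sets at least 1.5-fold lower between 2 single arrays (y axis, %), for the 100 member probe sets (red) and all probe sets tested (grey), with 10 array pairs along the x axis. The 4 JJN3 pairs of an shRNA array against a control show 15% to 34% of the members, against 3.85% to 4.82% of all probe sets, and the other 6 pairs show 0% to 6%.

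In RPMI-8226 the same genes were not lower after silencing. The median of the 100 member probe sets was -0.059 on the array labelled IRE1 shRNA and -0.14 on XBP1 shRNA, against -0.21 on NT and -0.12 on uninfected. The silenced minus control difference had a median of 0.078 over the members and 0.014 over all probe sets, with 65 of 100 members above 0. Both silenced arrays were above both controls for 26 member probe sets, against 18.7% of all probe sets, and below both for 11, against 14.5%. Without the array labelled IRE1 shRNA the first count was 39, against 38% of all probe sets, and without the NT array it was 40, against 37.8%, so that it lay near the background there. With limma, 0 members passed the adjusted threshold, as did 0% of all probe sets. At an unadjusted p under 0.05, 4 members were higher and 2 lower, against 2.74% of all probe sets in each direction. The members' median was 0.086 without the array labelled IRE1 shRNA and 0.077 without the XBP1 shRNA array. More members passed that p without the former and fewer without the latter.

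MCM4 was at -0.78 on the array labelled IRE1 shRNA and -0.81 on XBP1 shRNA in RPMI-8226, against -1.10 on NT and -0.85 on uninfected. Its silenced arrays were the higher ones here, by 0.18 ± 0.15. MCM5 differed by 0.19 ± 0.21, MCM7 by 0.15 ± 0.14, MCM2 by 0.067 ± 0.17, PCNA by 0.23 ± 0.15, TYMS by 0.34 ± 0.16 and E2F1 by 0.094 ± 0.16. The values furthest above 0 were those of GINS4, a subunit of the helicase activator GINS (0.60 ± 0.23), POLE2, a subunit of polymerase epsilon (0.58 ± 0.19), and CCNE1 (0.40 ± 0.20).

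Some genes were lower in both lines. CDC6 was at -0.18 on the array labelled IRE1 shRNA and -0.012 on XBP1 shRNA in RPMI-8226, against 0.31 on NT and 0.22 on uninfected, a difference of -0.36 ± 0.13. PRIM1 was at -0.10 and -0.29, against 0.10 and 0.20, a difference of -0.34 ± 0.14. On these representatives of both genes, all silenced arrays of either line lay below the controls of that line. The same order held for the CLSPN representative 243840_at, and for 221521_s_at of GINS2 and 211767_at of GINS4. Other probe sets of these last genes did not show it. The share of all probe sets with this order was not computed. The other CDC6 probe set, 203968_s_at, did not show this order in RPMI-8226. It was at 0.030 on the array labelled IRE1 shRNA and 0.21 on XBP1 shRNA, against 0.071 on each control. MCM6 (238977_at) was at 0.10 on the array labelled IRE1 shRNA and -1.21 on XBP1 shRNA, against -0.10 and 0.40, so that its difference of -0.71 ± 0.38 came from the XBP1 shRNA array. The strand-binding subunit RPA2 (-0.49 ± 0.23) and the loader subunit RFC1 (-0.37 ± 0.23) completed the 3 lowest.

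The difference between the lines in their response was itself fitted as an interaction, silencing in JJN3 minus silencing in RPMI-8226. Its median was -0.42 over the members and -0.013 over all probe sets, and 90 of 100 members were below 0. limma with Benjamini-Hochberg adjustment called 0 members and 0% of all probe sets. At an unadjusted p under 0.05, 27 members were lower and 0 higher, against 2.75% and 2.48% of all probe sets. With 1 array left out the members' median ran from -0.50 to -0.35. Fewest members were lower at that p without the JJN3 uninfected array, followed by the fit without the RPMI-8226 XBP1 shRNA array. The lowest values were MCM4 at -1.002 ± 0.21 (limma adjusted p = 0.786), MCM10 at -0.90 ± 0.20 and MCM5 at -0.90 ± 0.30. Next were CDC45 at -0.86 ± 0.25, RFC2 at -0.82 ± 0.23, CHAF1B at -0.79 ± 0.18, MCM2 at -0.78 ± 0.24, RFC3 at -0.77 ± 0.29, UHRF1 at -0.76 ± 0.36 and E2F1 at -0.69 ± 0.22, and MCM7 was at -0.65 ± 0.20. RFC5 (0.59 ± 0.27), RPA2 (0.45 ± 0.32) and the polymerase alpha gene POLA1 (0.078 ± 0.24) were highest.

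For 19 member probe sets in 16 genes, both silenced arrays were below both controls in JJN3 and above both controls in RPMI-8226, against 3.29% of all probe sets, and for 0 members was the order the reverse, against 2.28%. The 16 genes, named after their values were seen, were MCM4, MCM5, MCM7, MCM10, CDC45, GINS1, POLD3, PCNA, RFC2, RFC3, FEN1, LIG1, TYMS, CHAF1A, CHAF1B and SLBP. CDC45, a part of the active helicase, was at 0.27 on IRE1 shRNA and 0.33 on XBP1 shRNA in JJN3, against 0.62 on NT and 0.91 on uninfected. In RPMI-8226 it was at -0.68 on the array labelled IRE1 shRNA and -0.27 on XBP1 shRNA, against -0.84 and -0.89. CHAF1B, a subunit of the chromatin assembly factor, was at 0.31 and 0.41 in JJN3, against 0.74 and 0.81, and at -0.43 and -0.31 on the arrays so labelled in RPMI-8226, against -0.75 and -0.75. In both genes the silenced arrays of the lines lay closer to each other than the controls did. That follows from their choice among the 16, as both were higher in JJN3.

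Read by treatment over all members, the same arrays give the interaction in another form. The median of JJN3 minus RPMI-8226 over the 100 member probe sets was 0.095 between the arrays labelled IRE1 shRNA and 0.036 between the XBP1 shRNA arrays, against 0.44 between the NT shRNA arrays and 0.47 between the uninfected arrays. Each is the median of a difference between 2 single arrays, without a test and without a value for all probe sets beside it.

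Averaged over the lines, the members lay closer to 0. The median of silenced minus control, with the line as a block, was -0.12 over the members and 0.0086 over all probe sets, and 81 of 100 members were below 0. limma called 0 members and 0% of all probe sets at the adjusted threshold, and 13 members lower and 1 higher at an unadjusted p under 0.05, against 4.82% and 4.48% of all probe sets. Without the RPMI-8226 array labelled IRE1 shRNA the members' median was -0.18 and the counts were 17 and 1, against 5.74% and 5.21% of all probe sets. The median was -0.058 without the JJN3 XBP1 shRNA array and -0.072 without the JJN3 uninfected array. These fits left 9 and 8 members lower, against 4.68% and 3.56% of all probe sets. The 3 lowest genes were MCM6 at -0.96 ± 0.27 (adjusted p = 0.285), PRIM1 at -0.66 ± 0.14 (adjusted p = 0.191) and CLSPN at -0.60 ± 0.14 (adjusted p = 0.226), all by limma. CDC6 followed at -0.59 ± 0.12. POLE2 (0.28 ± 0.16), GINS4 (0.26 ± 0.19) and RFC5 (0.25 ± 0.16) were highest. Without the RPMI-8226 array labelled IRE1 shRNA, MCM6 passed the threshold (-1.27, limma adjusted p = 0.0480).

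The 2 shRNAs were then each set against NT shRNA over both lines, which share the NT arrays. For XBP1 shRNA the median was -0.14 over the members and 0.00059 over all probe sets. limma with Benjamini-Hochberg adjustment called 1 member, ORC3, which was lower, against 1.21% of all probe sets in either direction and 0.681% in this one. At an unadjusted p under 0.05, 20 members were lower and 0 higher, against 6.95% and 6.76% of all probe sets. Without the JJN3 NT array or the JJN3 XBP1 shRNA array the members lay near the share of all probe sets in both directions. ORC3 encodes a subunit of the origin recognition complex and has 1 probe set here, 210028_s_at. On XBP1 shRNA it was at 0.26 in JJN3 and -1.04 in RPMI-8226, against 1.12 and -0.34 on NT, and 1.17 and -0.26 on uninfected. It was at 1.05 on IRE1 shRNA in JJN3 and at -0.27 on the array labelled IRE1 shRNA in RPMI-8226. The XBP1 shRNA array was the lowest of its line in both lines, and the other 3 arrays of each line lay close together. ORC3 fell by 0.78 on the log2 scale ± 0.14 (limma adjusted p = 0.0385). That call was lost with quantile normalization, among probe sets of above-median SD, without the line block and without any 1 of the 8 arrays (limma adjusted p = 0.0720 to 0.217), while its direction remained in each of these.

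The other genes were short of the threshold for XBP1 shRNA. MCM6 was at -1.14 ± 0.25 (limma adjusted p = 0.0670) and passed without either IRE1 shRNA array (adjusted p = 0.0298). CCNE2 was at -0.80 ± 0.38, CDC6 at -0.57 ± 0.17, RRM2 at -0.53 ± 0.19 and TK1 at -0.47 ± 0.18. RFC5 (0.40 ± 0.20), GINS4 (0.33 ± 0.28) and RPA1 (0.31 ± 0.15) were highest. The members' median was 0.021 without the JJN3 NT array and 0.026 without the JJN3 XBP1 shRNA array, against -0.28 without the RPMI-8226 NT array and -0.30 when the XBP1 shRNA array of RPMI-8226 was left out, so its sign rested on JJN3.

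For IRE1 shRNA against NT, in which RPMI-8226 enters by the array labelled IRE1 shRNA, the median was -0.040 over the members and 0.0037 over all probe sets. The members' median turned on single arrays: it was -0.16 without the array labelled IRE1 shRNA or the NT array of RPMI-8226, but 0.049 without the IRE1 shRNA array and 0.058 without the NT array of JJN3. limma called 0 members, against 0.0183% of all probe sets, and at an unadjusted p under 0.05 7 members were lower and 3 higher, against 5.05% and 4.41%. Which direction held more members also changed with the array left out. POLD3, a subunit of polymerase delta, was lowest at -0.74 ± 0.20 (limma adjusted p = 0.263), followed by CDC6 at -0.66 ± 0.17 and CLSPN at -0.62 ± 0.21. CDT1 was highest at 0.84 ± 0.30 (limma adjusted p = 0.411), then ORC2 at 0.41 ± 0.14 and POLE2 at 0.36 ± 0.24. CDT1 was at -0.069 on IRE1 shRNA in JJN3 and at 1.16 on the array labelled IRE1 shRNA in RPMI-8226, against -0.30 and -0.29 on NT. On the uninfected arrays it was at 0.069 and 1.63, above NT in both lines. The CDT1 difference was 0.68 without the array labelled IRE1 shRNA and 0.20 without the RPMI-8226 NT array.

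Set directly against each other, IRE1 shRNA minus XBP1 shRNA, the 2 shRNAs differed in 3 members, all higher with IRE1 shRNA, against 1.9% of all probe sets in either direction and 0.908% in this one. At an unadjusted p under 0.05, 15 members were higher and 3 lower, against 6.48% and 7.22% of all probe sets. The members' median of 0.073 became -0.078 without the JJN3 XBP1 shRNA array and -0.046 without the RPMI-8226 array labelled IRE1 shRNA. Without the former, higher members were no more frequent than lower ones at that p. ORC2 (235423_at) was at 1.21 in JJN3 with IRE1 shRNA and at -0.27 on the array so labelled in RPMI-8226, against 0.27 and -1.17 with XBP1 shRNA, a difference of 0.92 ± 0.14 (limma adjusted p = 0.0183). Within each line the controls lay between them, at 0.86 and 0.74 in JJN3 and at -0.74 and -0.86 in RPMI-8226. The other ORC2 probe set, 204853_at, was at 0.21 and -0.18 on the same arrays, against 0.18 and -0.28, and did not show it. ORC3 differed by 0.78 (limma adjusted p = 0.0300).

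RFC3, a clamp loader subunit, passed through 231119_at, which was at 0.50 in JJN3 with IRE1 shRNA and at 0.33 on the array so labelled in RPMI-8226, against -0.48 and -0.29 with XBP1 shRNA, a difference of 0.80 ± 0.15 (limma adjusted p = 0.0374). Its other 2 probe sets did not pass. RRM2 was at 0.84 ± 0.19 (adjusted p = 0.0628) and CDT1 at 1.03 ± 0.30 (adjusted p = 0.145), both by limma. POLD3 (-0.70 ± 0.20), the kinase partner DBF4 (-0.56 ± 0.17) and RFC5 (-0.38 ± 0.20) were lowest. The 3 calls were lost with quantile normalization, without the line block, and without the JJN3 XBP1 shRNA array or either IRE1 shRNA array. Without any 1 of the other 5 arrays ORC2 remained called and ORC3 and RFC3 did not.

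Infection itself, NT shRNA minus uninfected, left the members with a median of -0.058, against 0.0099 for all probe sets. Its sign turned on single arrays: it was 0.073 without RPMI-8226 NT and 0.084 without JJN3 uninfected, but -0.19 without RPMI-8226 uninfected and -0.20 without JJN3 NT. limma called 0 members and 0% of all probe sets. At an unadjusted p under 0.05, 4 members were lower and 0 higher, against 2.68% and 2.9% of all probe sets, and these counts also changed with the array left out. CDT1 was lowest at -1.14 ± 0.30 (limma adjusted p = 0.873), with -0.30 in JJN3 and -0.29 in RPMI-8226 on NT, against 0.069 and 1.63 on uninfected. UHRF1 (-0.62 ± 0.23) and CHAF1A, the large subunit of the chromatin assembly factor (-0.49 ± 0.15), came next. CCNE2 was highest at 0.76 ± 0.38, with 1.57 and -0.57 on NT, against 1.61 and -2.12 on uninfected, so that RPMI-8226 alone supplied the difference. RPA2 (0.27 ± 0.19) and TIPIN, a fork protection factor (0.18 ± 0.21), followed, and for both the sign turned when 1 array was left out.

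Between the lines, JJN3 minus RPMI-8226 with treatment as a block, limma called 59 of the 100 member probe sets, against 56% of all probe sets, so the share was near the background. The direction was another one: 46 members were higher in JJN3, against 22.8% of all probe sets, and 13 were lower, against 33.3%. The actin 3′ minus 5′ difference given above also separated the lines, and its part in these calls was not tested. The shares of all probe sets depend on the scaling, and were 24.1% higher and 25.4% lower after quantile normalization, and 25.2% and 24.6% with each array centred on its median. The median difference was 0.24 over the members and -0.14 over all probe sets, which became 0.27 and -0.061 after quantile normalization. All 4 JJN3 arrays were above all 4 RPMI-8226 arrays for 40 members, against 18.9% of all probe sets, and below for 10, against 29.8%.

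CCNE2 differed most, at 1.47, 0.57, 1.57 and 1.61 on the IRE1 shRNA, XBP1 shRNA, NT and uninfected arrays of JJN3, against -1.43, -1.17, -0.57 and -2.12 on the arrays so labelled in RPMI-8226. The lines did not overlap, and CCNE2 was higher by 2.63 ± 0.27 (limma adjusted p = 4.18e-05). MCM4 was higher in JJN3 by 2.14 ± 0.19 (limma adjusted p = 1.75e-05), although its probe set 242479_s_at was lower there. The next were ORC2 (1.53 ± 0.10), MCM3 (1.48 ± 0.12), ORC3 (1.38 ± 0.10), POLD3 (1.26 ± 0.14), GINS2 (1.26 ± 0.17), the large ribonucleotide reductase subunit RRM1 (1.22 ± 0.13), CDC45 (1.21 ± 0.18), RPA1 (1.18 ± 0.10), CHAF1B (1.13 ± 0.16) and GINS4 (1.11 ± 0.20). All of these passed the limma threshold, and GINS2 turned to -0.083 under cyclic loess. The other probe sets of GINS2 were not higher in JJN3 without overlap. On 1557595_at every JJN3 array lay below every RPMI-8226 array (means -0.10 and 0.24), and on 221521_s_at the lines overlapped.

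Lower in JJN3 were 7 representatives, 5 of them genes of origin recognition and helicase loading. The origin recognition genes ORC2 and ORC3 were among those higher. ORC5 was lower on 204957_at, whereas the lines overlapped on its probe sets 211212_s_at and 211213_at. CDT1 was lower (-0.98 ± 0.22), as were the GINS subunit GINS3 (-0.93 ± 0.13), TK1 (-0.92 ± 0.13), ORC1 (-0.64 ± 0.14), CDC6 (-0.48 ± 0.12), ORC6 (-0.46 ± 0.11) and ORC5 (-0.39 ± 0.10), all past the limma threshold. The calls of CDT1, CDC6 and ORC5 were each lost under 1 alternative, with the direction kept, and the others were kept throughout. On the representatives of CDT1, CDC6 and ORC6 the arrays of the lines overlapped. TK1 was at -0.76, -0.82, -0.28 and -0.22 on the IRE1 shRNA, XBP1 shRNA, NT and uninfected arrays of JJN3, against 0.45, 0.22, 0.62 and 0.29 on the arrays so labelled in RPMI-8226. MCM5, MCM6, MCM7, PCNA, RRM2, CCNE1 and E2F1 did not pass, with values from -0.29 (MCM7) to 0.13 (MCM6).

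**Figure D5:**
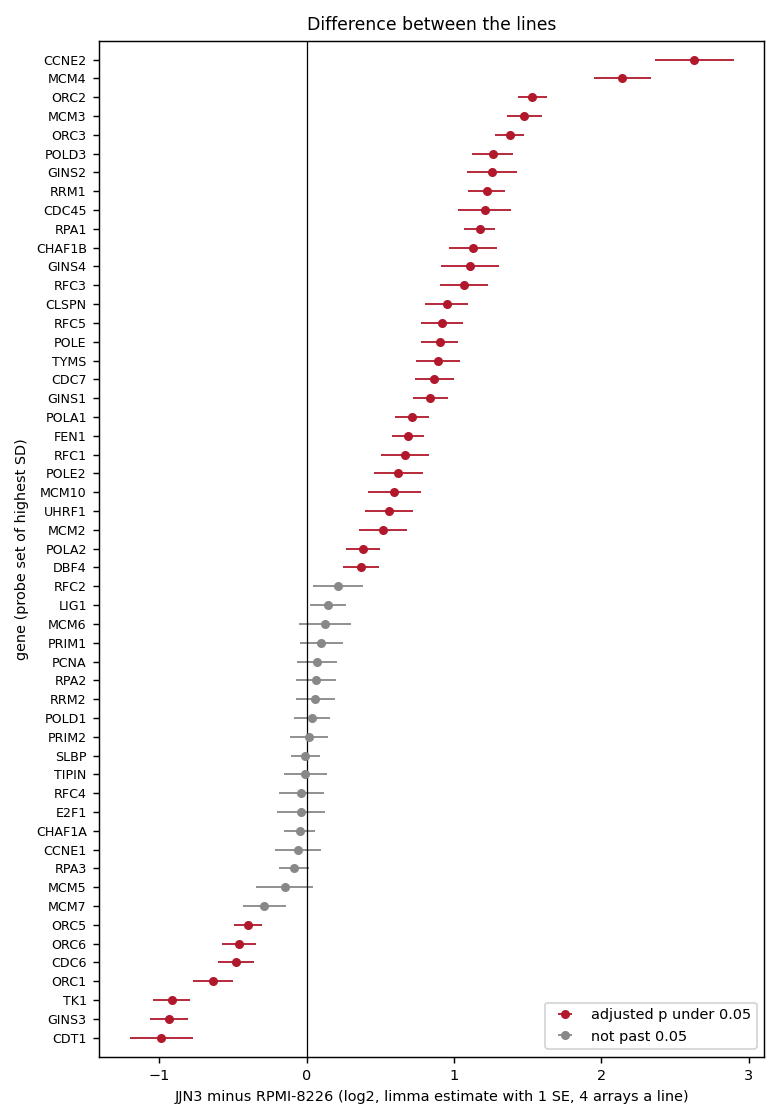
JJN3 minus RPMI-8226 (log2, limma estimate with 1 SE, 4 arrays a line) for the 53 genes, each by its probe set of highest SD, in red where the adjusted p was under 0.05. Of the 53 genes, 28 were higher in JJN3 and 7 lower, from CCNE2 at 2.63 to CDT1 at -0.98, against 25.4% and 43.5% of all genes with 1 probe set a gene.

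Replication genes outside the 53 lay closer to 0 in JJN3. Both sets were chosen with earlier results of these data known, so the gap between them is a description only. The outside set also holds genes of the control of replication, such as CDKN1A, CDKN1B and RB1. Of 51 further genes of replication and its control, 49 were measured, with 103 probe sets. In JJN3 both silenced arrays were below both controls for 28 of these (27.2%), against 20.3% of all probe sets. Both were above for 17 (16.5%), against 19.6%. The median of silenced minus control over these probe sets was -0.062, against -0.36 for the members. In the interaction, silencing in JJN3 minus silencing in RPMI-8226, their median was -0.14, with 65 of 103 probe sets below 0. There it was -0.42 over the members and -0.013 over all probe sets. Over both lines, limma called 3 of the 103 probe sets (2.91%), all higher with IRE1 shRNA than with XBP1 shRNA, against 0.908% of all probe sets. They were probe sets of the mitotic brake WEE1 (0.98 ± 0.18), CDCA7 (0.81 ± 0.13) and the histone chaperone NASP (0.75 ± 0.15). None of these 3 was the probe set of highest SD of its gene. Of the probe sets of highest SD of the 49 genes, 0 were called in that comparison. Between the lines limma called 52 of the 103 probe sets higher in JJN3 (50.5%) and 16 lower (15.5%), against 22.8% and 33.3% of all. It called 0 in the other 7 comparisons. Among them was silencing in JJN3, where 13 were lower and 7 higher at an unadjusted p under 0.05. These are 12.6% and 6.8%, against 4.66% and 4.56% of all probe sets. E2F octamers stood in the promoters of 16 of 40 of these genes.

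Genes of G2 and mitosis (35 genes, 75 probe sets) did not fall with the replication genes after silencing in JJN3. Their median of silenced minus control was 0.12 in JJN3 and 0.30 in RPMI-8226. The interaction, silencing in JJN3 minus silencing in RPMI-8226, nevertheless had the direction seen for the members. Its median was -0.28, with 58 of 75 probe sets below 0, against -0.42 over the members and -0.013 over all probe sets. In JJN3 both silenced arrays were above both controls for 23 probe sets (30.7%) and below for 12 (16%), against 19.6% and 20.3% of all. In RPMI-8226 the counts were 43 (57.3%) and 3 (4%), against 18.7% and 14.5%. Their array medians in JJN3 were 0.36 on IRE1 shRNA and 0.18 on XBP1 shRNA, against 0.21 on NT and 0.25 on uninfected, whereas the replication genes were lower on both shRNA arrays. E2F octamers stood in the promoters of 3 of 28 of them. With limma 0 of these probe sets passed the adjusted threshold for silencing in either line. At an unadjusted p under 0.05, 4 were higher and 2 lower in JJN3 (5.33% and 2.67%, against 4.56% and 4.66% of all). In RPMI-8226, 27 were higher and 0 lower (36% and 0%, against 2.74% in each direction). Between the lines 44 probe sets were higher in JJN3 (58.7%) and 3 lower (4%), against 22.8% and 33.3% of all probe sets.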

How the data were processed

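RNA of 8 cultures was hybridised to U133 Plus 2.0 arrays. The deposited table holds log2 signals that, per the submitters' processing notes, came from RMA, for which no version is given; no log base or centring is given there. Over the 8 arrays the median was 0 for all 54675 probe sets (tolerance 1e-05), and values ran from -5.73 to 5.45. Percentages assume base 2. The number of arrays limits the precision, and 0 pairs of arrays were identical.

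Names came from the array annotation: 41097 probe sets had 1 symbol, 1801 had several and 11777 had none. The 100 member probe sets all matched RefSeq genes by identifier. After 62 AFFX control probe sets were left out, 54613 entered the models of limma 3.58.1, run under R 4.3.3 (lmFit and eBayes, two-sided, Benjamini-Hochberg over all of them, threshold 0.05). Treatments were compared over all 8 arrays with the cell line as a block, which pairs arrays of the same line, and the lines with treatment as a block; silencing within lines and its interaction had their own fit, with 4 residual degrees of freedom. The fits were tested on simulated data. RPMI-8226 is replicate 1 and JJN3 replicate 2 of each treatment. Errors are standard errors.

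The members and lists were chosen with earlier results of these data known. By rule the text names the 6 MCM helicase genes, CDC6, CDT1, PCNA, RRM2, TYMS, TK1, E2F1, CCNE1, CCNE2 and UHRF1, up to 12 called members in each direction, and otherwise the 3 of largest difference; other names were chosen after their values were seen. A gene is represented by its probe set of highest SD. Alternatives changed the level of the fit, the probe sets kept, the scaling, the block, the variance model and the arrays used.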

Additional observations from a re-analysis of the deposited data

Results flagged for a closer look

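Among 116 groups of 4 arrays of a line, 7 had 1 array far from the other 3 by Dixon's criterion, which chance meets in about 1 in 20 groups. ORC3 was at 0.26 on the XBP1 shRNA array of JJN3, against 1.05 to 1.17 on the other arrays of the line. In RPMI-8226 it was at -1.04 on the XBP1 shRNA array, against -0.34 to -0.26. GINS2 (243136_at) was at 0.12 on the XBP1 shRNA array of JJN3, against 1.23 to 1.26. CCNE2 was at 0.57 on that array, against 1.47 to 1.61. PRIM2, the large primase subunit, was at -0.38 there, against 0.015 to 0.038. CHAF1A (214426_x_at) was at 0.37 on the uninfected array of JJN3, against -0.045 to -0.011. The median of the hybridisation controls was 0.42 on the IRE1 shRNA array of JJN3, against -0.0047 to 0.048.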

How the results depend on the processing

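In JJN3 the count of members lower on both silenced arrays (64 of 100) kept its excess over all probe sets under every alternative run, with 36 of 53 for 1 probe set a gene, 37 of 53 for the mean of a gene's probe sets and 36 of 61 without probe sets that may match several transcripts. Without 1 JJN3 array it was 68 to 86, against 32.6% to 39% of all probe sets. The RPMI-8226 count of members higher (26) was 14, 12 and 15 in the same order (18.5%, 19.1% and 19.4% of all), 16 of 66 for probe sets of above-median SD (16.4%) and 39 to 46 without 1 array of the line (32.5% to 38%), so several of these shares were near the background. For XBP1 shRNA against NT the count of 1 became 0 without probe sets that may match several transcripts (which removes ORC3), among probe sets of above-median SD, with quantile normalization and with no replicate block, and 0 to 1 without 1 array, the 1 being MCM6 and not ORC3. For IRE1 shRNA against XBP1 shRNA the count of 3 became 1 for the mean of probe sets, 0 with quantile normalization and 0 with no replicate block, and 0 to 3 without 1 array, where CDT1, RRM2 or GINS2 stood among the calls. Without the line as a block the replicate pairing is lost, and the other comparisons with a block kept their side of the threshold. Between the lines the count of 59 was 35 of 53 for 1 probe set a gene (68.9% of all), 31 of 53 for the mean (65.7%), 35 of 61 without shared probe sets (53.3%) and 52 to 56 without 1 array. Silenced against control gave 0 to 1 without 1 array, and silencing in JJN3 gave 1 for the mean of probe sets (PRIM1, limma adjusted p = 0.0399) and 0 to 1 without 1 array (GINS2, limma adjusted p = 0.0495 without the IRE1 shRNA array). The cause was not tested.

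Of the values for single genes, 1043 kept direction and side of the threshold, 30 lost and 7 gained a call, and 17 changed sign. With the mean of probe sets, GINS4 was at -0.13 for silencing, -0.19 for XBP1 shRNA against NT and -0.0037 for silencing in RPMI-8226, and RFC5 at -0.013 for silencing, -0.11 in JJN3 and -0.20 in the interaction. Without 1 array GINS4 ran between -0.26 and 0.91 for XBP1 shRNA, lowest without that array of RPMI-8226. For NT against uninfected TIPIN ran between -0.070 and 0.43, lowest without RPMI-8226 uninfected and at -0.00815 without JJN3 NT, and RPA2 between -0.037 and 0.57, lowest without RPMI-8226 NT. GINS2 was at -0.083 between the lines with cyclic loess, which on centred values has no intensity axis. RPA1 in JJN3 was at -0.033 with quantile normalization, -0.025 without JJN3 NT, -0.020 without JJN3 XBP1 shRNA and up to 0.079 otherwise. POLA1 in the interaction was at -0.00603 with quantile normalization, -0.00423 without RPMI-8226 uninfected, -0.13 without RPMI-8226 XBP1 shRNA and up to 0.29 otherwise.

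With 1 array per line and treatment, no value has a replicate culture within a line, and the centred signals give no measure of how far a probe set stands above background.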
